A study of Mus musculus with 18 samples.

Results

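The 9 genes described here encode the granins (*Chga*, *Chgb*, *Scg2*, *Scg3*), prohormone processing proteins (*Pcsk1*, *Cpe*, *Scg5*, *Pcsk1n*) and a vesicular monoamine transporter (*Slc18a1*). They were chosen by name and function, with earlier results of these data, the day 1 enteroids included, already known. They are 9 of 18838 genes listed over the 3 tables of the study. All 9 were listed in every table. Their day 1 genotype difference is therefore given as a description, with no test. The genotype tests of members below use the crypt and day 3 libraries of the same mice. The comparisons of time points come from fits to all 18 libraries, those of day 1 included.

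The study asked how loss of MTGR1, a transcriptional co-repressor, alters gene expression in intestinal crypts and in the enteroids grown from them. Duodenal crypts of 3 WT (Mtgr1+/+) and 3 Mtgr1-/- mice were collected at isolation (day 0) or plated, and enteroids, 3-dimensional cultures of intestinal epithelium, were collected 24 h (day 1) and 72 h (day 3) later, which gave 18 bulk RNA libraries, 3 per genotype and time point. The mice were littermates of both sexes, 8 to 12 weeks old per the methods for enteroid culture. The paper describes the Mtgr1-/- mice as lacking MTGR1 globally. Values are normalized counts, which are gene counts divided by 1 factor per library within the table of a time point.

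Enteroendocrine cells are the hormone-secreting cells of the gut epithelium, and they store peptide hormones and serotonin in dense-core granules. Granins are acidic proteins that aggregate in the secretory pathway and help to form these granules. Prohormones are cut within the granules by the convertase encoded by *Pcsk1*, and the exposed basic residues are trimmed by carboxypeptidase E, encoded by *Cpe*. *Slc18a1* encodes VMAT1, which loads monoamines into vesicles.

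A feature shared by the promoters of several of these genes is the cAMP response element (CRE), the DNA element that the factor CREB binds. The RefSeq promoter table for GRCm38.p6, covering 250 bases before and 50 after each gene start, held 7 of the 9 genes, all but *Cpe* and *Slc18a1*. The full CRE (TGACGTCA, which reads the same on both strands) occurred in 3 of these 7 windows (*Chgb*, *Scg2* and *Pcsk1*) and in 1.79% of all 32851 windows. Its first 5 letters alone (TGACG, sought on both strands and contained in the full element) occurred in 6 of the 7, all but *Pcsk1n*, and in 20.8% of all windows. The stretches below show these letters in their place, each 30 bases long, 5′ to 3′ on the strand of the gene, with the full CRE or the TGACG core in capitals. They are matches of letters and not measured binding sites.
Chgb: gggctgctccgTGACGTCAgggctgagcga
Scg2: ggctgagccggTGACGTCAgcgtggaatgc
Pcsk1: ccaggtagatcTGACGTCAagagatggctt
Chga: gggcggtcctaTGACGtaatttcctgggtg
Scg3: cgctgggtcgcTGACGccatcctcacgcct
Scg5: aaggaggtaaaTGACGttcataggggtcga
Distances are counted from the RefSeq gene start. For *Chgb*, *Scg2*, *Pcsk1* and *Scg5* that start lies inside the GENCODE gene whose coordinates are given further on, and for *Chga* it lies before it. The elements of *Chgb* and *Scg2* fall within the GENCODE gene. The full elements began 72 bases before the RefSeq start in *Chgb* (chr2:132781559-132781588, plus strand), 68 bases before it in *Scg2* (chr1:79440076-79440105, minus strand) and 78 bases before it in *Pcsk1* (chr13:75089768-75089797, plus strand). The cores began 44 bases before the start in *Chga* (chr12:102554886-102554915, plus strand), 30 bases before it in *Scg3* (chr9:75684068-75684097, minus strand) and 175 bases before it in *Scg5* (chr2:113829248-113829277, minus strand).

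Facts of the libraries touch these results as follows. Depth was 22035316 to 28621990 reads in the 16 libraries whose reads could be recovered from the deposited values. *Cbfa2t2*, the gene encoding MTGR1, ranged from 523 to 883 normalized counts in the 9 WT libraries and from 466 to 1160.3 in the 9 libraries labelled Mtgr1-/-. It did not fall past the threshold in crypts (log2 fold change -0.047, adjusted p = 0.917, limma) or at day 3 (0.056, adjusted p = 0.686, limma). At day 1 it was higher in the Mtgr1-/- libraries by 0.37, just outside the threshold (adjusted p = 0.0557, limma), and this rise passed in 3 of 14 alternatives. Which part of the gene was deleted was not examined here, so these counts do not check the labels, and Mtgr1-/- below means the libraries labelled so. WT crypt library 3 stood apart by its leukocyte markers, whose summed level was 7019 against 1142 and 1077 in the other WT crypts. Mtgr1-/- crypt library 2 stood apart by its Paneth cell markers (44064 summed, against 1803 and 1363). Epithelial markers were present throughout (9 of 9 listed, summed level 198557 to 483705), while enteroendocrine hormones summed to 3458 to 5645 in WT libraries and to 101 to 200.2 in Mtgr1-/- libraries. In bulk RNA, fewer cells of a type and less RNA per cell cannot be told apart.

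In WT libraries, *Chgb* was the most abundant of the 9 transcripts at every time point. Per kilobase of merged exon, the scale on which different genes can be compared, its level was 1641 ± 434 normalized counts per kb in crypts, 1964 ± 403 at day 1 and 2487 ± 100.2 at day 3 (mean ± SD, n = 3). *Chga* came next (481 ± 228, 275 ± 41.8 and 357 ± 30.1 normalized counts per kb) and *Cpe* after it (122 ± 29.8, 133 ± 13.6 and 114 ± 5.87). The libraries of these 3 genes did not overlap at any of the 3 time points. *Pcsk1*, *Scg2* and *Slc18a1* followed within 42.1 to 80.1 normalized counts per kb, and their order changed between time points: *Scg2* and *Pcsk1* overlapped at day 1, as did *Pcsk1* and *Slc18a1* at day 1 and day 3. *Scg3* and *Scg5* overlapped at every time point, at 12.6 to 18.2 normalized counts per kb, and *Pcsk1n* was lowest, at 1.64 to 3.84.

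In the libraries labelled Mtgr1-/- the order was different, with *Cpe* first at every time point. Of the summed level per kb over the 9 genes, *Chgb* made up 67.7 ± 1.71% in WT crypts and 4.19 ± 2.46% in Mtgr1-/- crypts. *Cpe* made up 5.05 ± 0.223% in WT crypts and 77.5 ± 13% in Mtgr1-/- crypts. At day 1 the *Cpe* share was 5.29 ± 0.908% in WT and 93.4 ± 1.41% in Mtgr1-/- enteroids, and at day 3 it was 3.6 ± 0.276% and 76.2 ± 7.87%. *Slc18a1* was second in Mtgr1-/- enteroids, with 4.56 ± 0.464% at day 1 and 14.4 ± 4.29% at day 3, against 1.69 ± 0.449% and 1.77 ± 0.0592% in WT (n = 3 each). The lowest *Cpe* share of any Mtgr1-/- library was 65.0%, above the highest of any WT library, 5.97%. The sum itself differed, so these shares do not give the size of a change in level. It was 2436 ± 709 normalized counts per kb in WT and 804 ± 418 in Mtgr1-/- crypts. At day 1 it was 2559 ± 454 and 2300 ± 537, and at day 3 it was 3183 ± 87.1 and 925 ± 55.0.

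**Figure D1:**
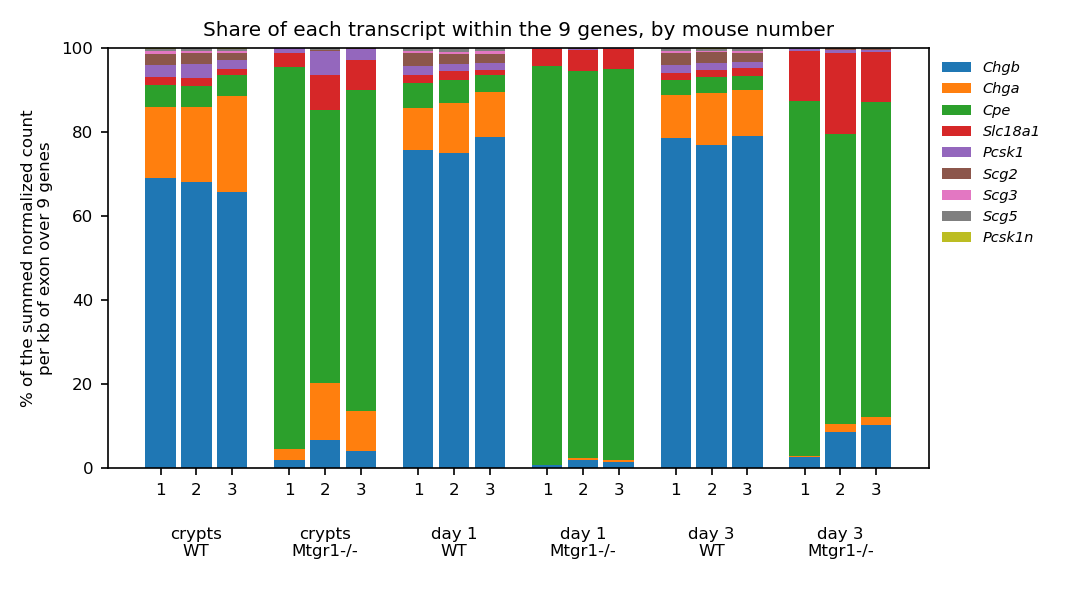
Stacked bars give, for each of the 18 libraries (x axis: time point, genotype and mouse number), the percentage of the summed normalized count per kb of exon that each of the 9 genes made up. *Chgb* fills 65.8% to 79.0% of every WT bar and *Cpe* fills 65.0% to 95% of every Mtgr1-/- bar.

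The chromogranins were the members with the highest WT counts. *Chgb* (ENSMUSG00000027350.8, chr2:132781278-132795079 of GRCm38, plus strand), which encodes chromogranin B, was at 3907, 3716 and 5865 normalized counts in the 3 WT crypt libraries and at 63.1, 79.9 and 79.3 in the Mtgr1-/- crypts. Every Mtgr1-/- library lay far below every WT library. *Chgb* fell by 5.88 on the log2 scale in Mtgr1-/- crypts (SE 0.20, adjusted p = 9.71e-05, limma), and the WT mean was 60.7 times the Mtgr1-/- mean. At day 1 the libraries held 5147, 4413 and 6584 normalized counts in WT and 45.5, 89.1 and 103 in Mtgr1-/- enteroids, a log2 fold change of -6.13 (SE 0.30). At day 3 they held 6799, 6546 and 7095 in WT and 66.0, 229.7 and 243 in Mtgr1-/- enteroids, a log2 fold change of -5.45 (SE 0.43, adjusted p = 4.48e-05, limma).

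*Chga* (ENSMUSG00000021194.6, chr12:102554969-102565028, plus strand) encodes chromogranin A, the standard marker of enteroendocrine cells. In crypts it was at 954, 972 and 2051 normalized counts in WT and at 89.5, 159.8 and 192 in Mtgr1-/- mice, and it fell by 3.14 on the log2 scale (SE 0.38, adjusted p = 0.00709, limma). The WT library of 2051 is the one with raised leukocyte markers, and without it the fold change was still called, as it was without any other library. At day 1 the values were 677, 706 and 889 in WT and 8.16, 21.8 and 25.4 in Mtgr1-/- enteroids, a log2 fold change of -5.41 (SE 0.38). At day 3 WT enteroids held 894, 1059 and 997 and Mtgr1-/- enteroids 7.96, 48.7 and 44.9, a log2 fold change of -5.17 (SE 0.58, adjusted p = 0.000226, limma). Of the 3 Mtgr1-/- mice, mouse 1 had the lowest *Chga* and the lowest *Chgb* at each time point.

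The ratio of the chromogranins differed most in crypts. WT crypts held 4.09, 3.82 and 2.86 normalized counts of *Chgb* per count of *Chga*, and Mtgr1-/- crypts held 0.705, 0.500 and 0.413, so that in Mtgr1-/- crypts *Chga* was the more abundant of the pair. The groups did not overlap in this ratio. At day 1 the ratio was 6.25 to 7.61 in WT and 4.04 to 5.57 in Mtgr1-/- enteroids, again without overlap. At day 3 the ranges overlapped, at 6.18 to 7.60 in WT and 4.71 to 8.29 in Mtgr1-/- enteroids. These ratios are given as descriptions, since 3 libraries against 3 cannot reach a two-sided exact permutation p below 0.1.

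The secretogranins were low in WT and close to the counting limit in Mtgr1-/- libraries. *Scg2* (ENSMUSG00000050711.7, chr1:79434669-79440120, minus strand) encodes secretogranin II, the precursor of secretoneurin. It was at 131, 128 and 139 normalized counts in WT crypts and at 0, 2.85 and 5.08 in Mtgr1-/- crypts, from 387 reads against 8, a ratio of 51.3 (95% exact interval 25.8 to 119.6, counting error only). At day 1 it was at 191, 123 and 163 in WT and at 2.33, 6.64 and 1.10 in Mtgr1-/- enteroids. At day 3 it was at 225, 209 and 170.4 in WT and at 4.55, 9.94 and 7.86 in Mtgr1-/- enteroids, from 662 reads against 21, a ratio of 26.7 (95% exact interval 17.3 to 43.5). *Scg2* fell at both times, with a log2 fold change of -5.55 in crypts (SE 0.68, adjusted p = 0.00712, limma) and -4.63 at day 3 (SE 0.30, adjusted p = 1.86e-05, limma). It passed the minimum mean only through its WT level. Under the alternatives its fold change ranged from -6.85 to -3.75 in crypts and from -5.02 to -3.77 at day 3.

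*Scg3* (ENSMUSG00000032181.7, chr9:75643189-75684056, minus strand) encodes secretogranin III, which binds chromogranin A and the granule membrane. Its WT values were 47.0, 30.7 and 43.7 normalized counts in crypts, 34.8, 36.4 and 57.8 at day 1 and 46.6, 33.0 and 46.5 at day 3. The 9 Mtgr1-/- libraries held between 0 and 1.99. In crypts 118 WT reads stood against 2 in Mtgr1-/- libraries, a ratio of 62.5 (95% exact interval 16.9 to 522). At day 3, 137 reads stood against 3, a ratio of 38.7 (95% exact interval 13 to 190.2). *Scg3* fell at both times, with a log2 fold change of -4.71 in crypts (SE 0.58, adjusted p = 0.00736, limma) and -4.52 at day 3 (SE 0.51, adjusted p = 0.000226, limma). This gene too passed the minimum mean only through its WT level. The size of its fold change depended on the setting, from -6.38 to -2.47 in crypts and from -6.21 to -2.46 at day 3 under the alternatives.

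*Scg5* (ENSMUSG00000023236.7, chr2:113776362-113829121, minus strand) encodes 7B2, the chaperone of the convertase PC2, while *Pcsk2*, the gene of PC2 itself, was too low to be tested at any time point. *Scg5* was at 17.2, 16.8 and 25.3 normalized counts in WT crypts and at 0, 2.85 and 0 in Mtgr1-/- crypts, and it fell by 3.71 (SE 0.79, adjusted p = 0.0496, limma), just inside the threshold of 0.05 and outside it with the mouse number as a replicate block (adjusted p = 0.0793, limma). At day 1 it was at 25.6, 27.1 and 30.2 in WT and at 0 in all 3 Mtgr1-/- libraries. Against a floor of 3 reads over the group, WT day 1 enteroids were at least 26.0-fold higher. At day 3 it was at 30.5, 22.3 and 32.9 in WT and at 2.28, 0 and 2.25 in Mtgr1-/- enteroids, and it fell by 3.73 (SE 0.57, adjusted p = 0.000972, limma). *Scg5* passed the minimum mean only through its WT level. Its log2 fold change ranged from -5.98 to -1.64 in crypts and from -5.10 to -1.94 at day 3 under the alternatives.

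*Pcsk1* (ENSMUSG00000021587.5, chr13:75089826-75134861, plus strand) encodes the prohormone convertase PC1/3, which cuts proglucagon and other gut prohormones. In crypts it was at 331, 364 and 407 normalized counts in WT and at 82.9, 139.8 and 101 in Mtgr1-/- mice. The groups did not overlap, and the WT mean was 3.41 times the Mtgr1-/- mean, the smallest ratio among the members that fell in crypts. *Pcsk1* fell by 1.79 on the log2 scale in crypts (SE 0.22, adjusted p = 0.00708, limma). At day 1 it was at 293, 223 and 278 in WT and at 32.7, 32.2 and 25.4 in Mtgr1-/- enteroids, a log2 fold change of -3.09 (SE 0.20). At day 3 it was at 314, 264 and 284 in WT and at 14.8, 40.8 and 18 in Mtgr1-/- enteroids, and it fell by 3.63 (SE 0.34, adjusted p = 0.000101, limma).

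*Pcsk1n* (ENSMUSG00000039278.10, chrX:7919822-7924410, plus strand) encodes proSAAS, an inhibitor of that convertase. Its mean stayed below the minimum of 10 for testing at every time point. WT crypts held 7.67, 4.95 and 12.7 normalized counts and Mtgr1-/- crypts 0, 0 and 1.02, a ratio of 25.4 from 24 reads against 1 (95% exact interval 4.15 to 1046). WT day 3 enteroids held 8.07, 11.6 and 4.84, and all 3 Mtgr1-/- day 3 libraries held 0, so that WT was at least 7.64-fold higher against a floor of 3 reads. At day 1 WT held 3.66, 2.08 and 5.03 and Mtgr1-/- enteroids 1.17, 0 and 0. Its exons share 135 bases with *Eras* on the other strand.

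**Figure D2:**
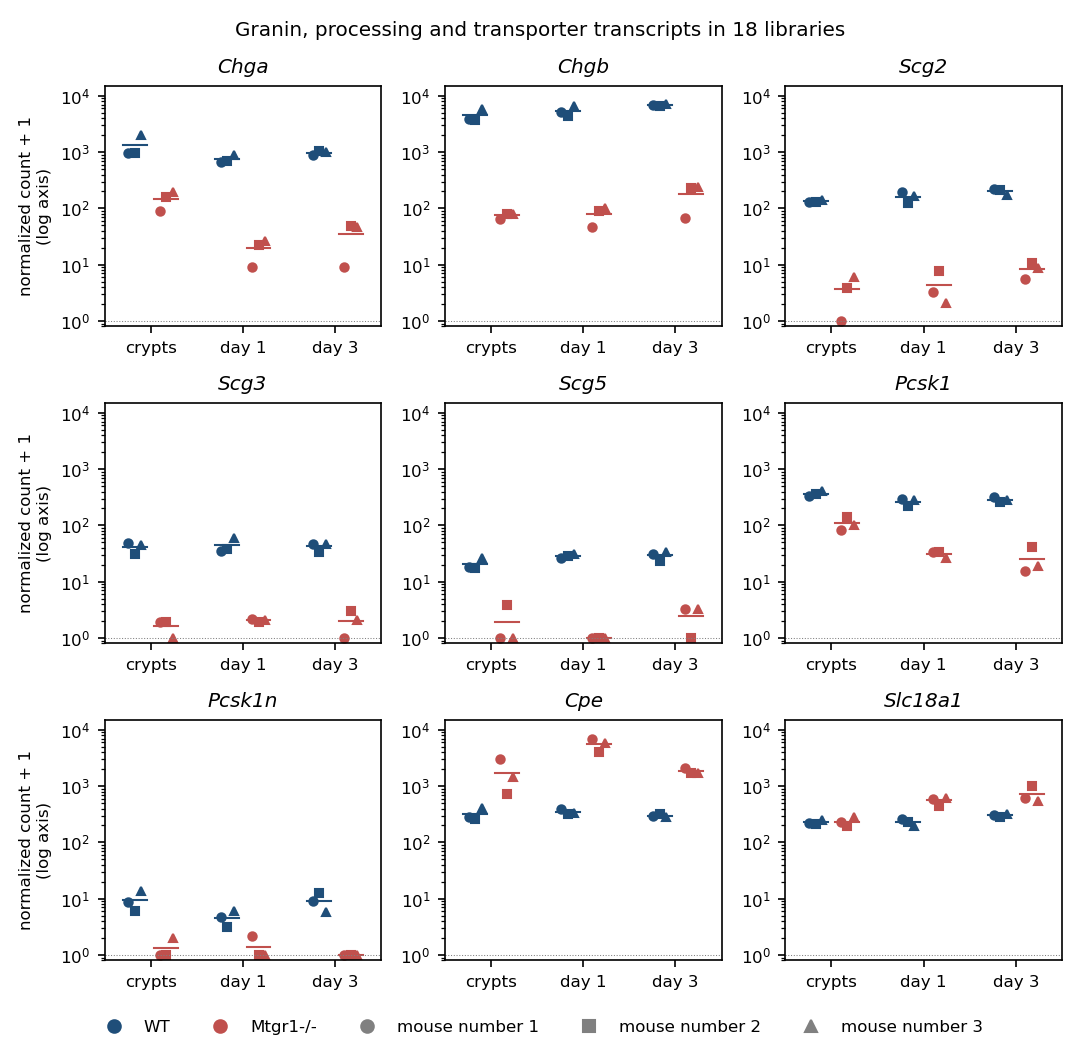
Each panel plots the normalized count + 1 of one gene on a log axis against the time point for 3 WT and 3 Mtgr1-/- libraries, with a symbol for each mouse number and a bar at the group mean + 1. In 7 panels all Mtgr1-/- points lie below all WT points at each time point, in the *Cpe* panel they lie above them, and in the *Slc18a1* panel they overlap in crypts and lie above at day 1 and day 3.

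*Cpe* (ENSMUSG00000037852.8, chr8:64592542-64693054, minus strand), the carboxypeptidase that acts after the convertases, went the other way. In crypts it was at 282, 265 and 407 normalized counts in WT and at 2985, 733 and 1442 in Mtgr1-/- mice. All 3 Mtgr1-/- values lay above the WT values, with a wide spread between mice, and the log2 rise of 2.23 (SE 0.47, 95% confidence interval 1.10 to 3.35, adjusted p = 0.0490, limma) was just inside the threshold. The call was lost when any library other than Mtgr1-/- library 2 was left out. At day 1 *Cpe* was at 386, 317 and 339 in WT and at 6839.5, 4114 and 5906 in Mtgr1-/- enteroids, 16.2 times the WT mean. At day 3 it was at 294, 315 and 286 in WT and at 2076, 1747 and 1692 in Mtgr1-/- enteroids, a rise of 2.61 on the log2 scale (SE 0.10, adjusted p = 4.36e-06, limma) and 6.16 times the WT mean.

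The mouse order of *Cpe* in Mtgr1-/- crypts (mouse 1 highest, mouse 2 lowest) was also that of the summed tuft cell markers. The summed leukocyte markers had this order too, at 2251, 769 and 1869 in mice 1, 2 and 3. The 8 tuft cell markers, among them *Dclk1*, *Trpm5* and *Pou2f3*, were all listed in crypts, with *Il25* at only 0 to 4.07 normalized counts. They summed to 1715, 1550.3 and 1960.3 in WT crypts and to 8651, 2465 and 6302 in Mtgr1-/- crypts. None of the 7 that could be tested passed the adjusted threshold, with a median log2 fold change of 1.85. All 7 were at an unadjusted p below 0.05 (limma), beside 2395 of all 12980 genes tested. In enteroids, where *Cpe* was higher in Mtgr1-/- libraries, the 7 markers listed summed to 647 to 906 in WT and 409 to 623 in Mtgr1-/- libraries at day 1. At day 3 they summed to 629 to 718 and 424 to 469, and 4 of 7 fell and 0 rose. The enterocyte markers summed to 191468 to 248929 in WT and 551322 to 917947 in Mtgr1-/- enteroids at day 1. At day 3 they summed to 140492 to 154401 and 425693 to 735314, and 10 of 10 rose. Of all tested genes, 29.1% fell and 29.9% rose at day 3. In crypts the enterocyte markers overlapped, at 418070 to 543356 summed in WT and 405487 to 771398 in Mtgr1-/- libraries. There they were highest in Mtgr1-/- mouse 3, and 0 of 10 rose or fell past the threshold. The part of these cell types in the difference of *Cpe* was not tested.

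**Figure D3:**
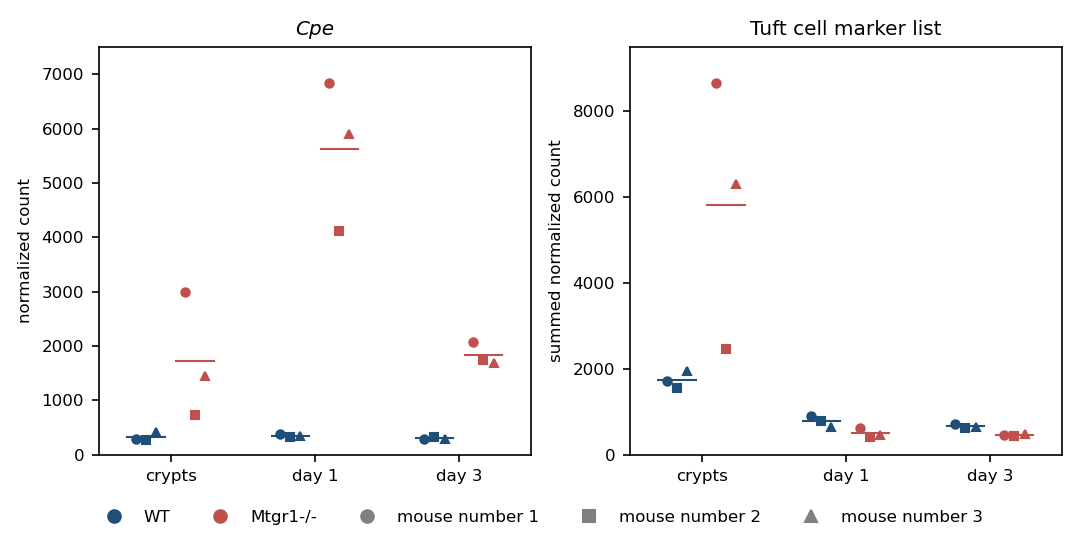
Left, normalized counts of *Cpe*, and right, the summed normalized counts of the tuft cell markers, each against the time point in 3 WT and 3 Mtgr1-/- libraries (linear axes from 0, symbols for mouse numbers, bars at group means). In crypts both are highest in Mtgr1-/- mouse 1, at 2985 and 8651, whereas in enteroids *Cpe* is at 1692 to 6839.5 and the tuft sum at 409 to 623 in Mtgr1-/- libraries.

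*Slc18a1* (ENSMUSG00000036330.12, chr8:69037711-69089235, minus strand) did not separate the genotypes in crypts. It was at 218, 216 and 253 normalized counts in WT crypts and at 229, 193 and 281 in Mtgr1-/- crypts, which overlapped, with a log2 fold change of 0.018 (SE 0.18, 95% confidence interval -0.40 to 0.44, adjusted p = 0.970, limma). At day 1 it was at 262, 227 and 194 in WT and at 601, 452 and 623 in Mtgr1-/- enteroids, 2.46 times the WT mean. At day 3 it was at 304, 288 and 324 in WT and at 606, 1014 and 555 in Mtgr1-/- enteroids, and it rose by 1.19 on the log2 scale (SE 0.21, adjusted p = 0.00200, limma), 2.38 times the WT mean. The gene body overlaps *Atp6v1b2* on the other strand, but their exons share 0 bases.

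In all, 6 of the 8 members tested in crypts fell and 1 rose, where 3.15% of the 12980 genes tested fell and 1.58% rose. At day 1, 6 of the 8 tested were lower and 2 higher past the same threshold, beside 28.9% of 12587 genes lower and 30.0% higher, and nothing is read from that count since the choice of genes knew it. At day 3, 6 of 8 fell and 2 rose, beside 29.1% of 12782 genes that fell and 29.9% that rose. *Scg2*, *Scg3* and *Scg5* passed the minimum mean of 10 only through their WT level, so these counts are not evidence about the set. The median log2 fold change of the tested members was -3.42 for crypts, -4.60 at day 1 and -4.13 at day 3, and over all tested genes it was 0.0076, -0.0080 and 0.0026 at these times. The genotypes did not overlap in 8 of the 9 genes in crypts and in 9 of 9 at day 1 and day 3, against 25.5%, 68.1% and 68.8% of all tested genes. The counts of the 9 include *Pcsk1n*, which was not tested, and *Scg2*, *Scg3* and *Scg5*, so they too are not evidence about the set. Without WT crypt library 3, 5 members fell in crypts and 0 rose, without WT library 1 the counts were 3 and 0, and without WT library 2 they were 4 and 0.

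**Figure D4:**
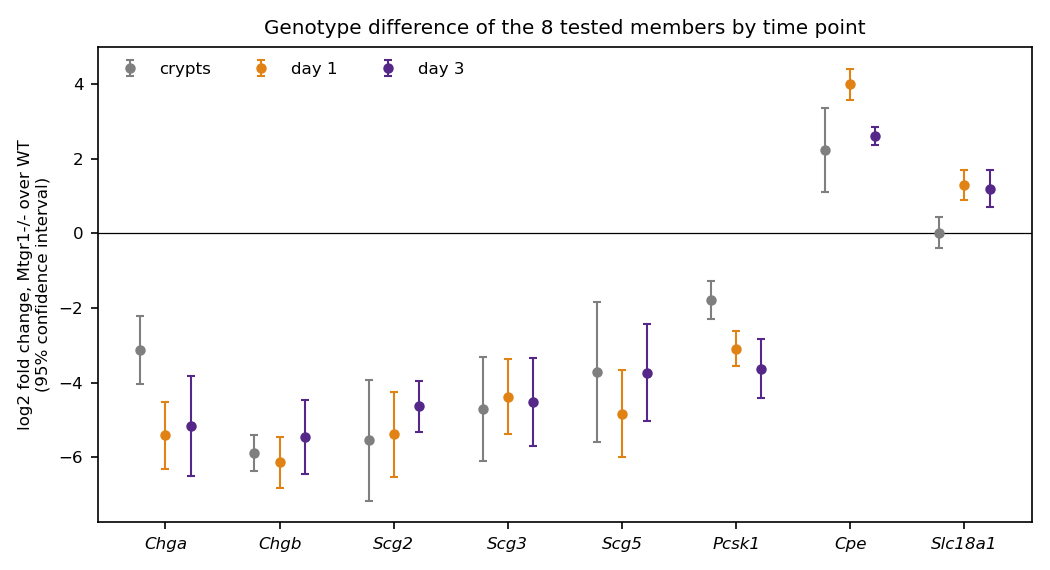
Points give the log2 fold change of Mtgr1-/- over WT on the log2(normalized count + 1) scale for the 8 tested genes, with 95% confidence intervals from limma, in crypts, at day 1 and at day 3. *Pcsk1* goes from -1.79 in crypts to -3.63 at day 3, *Slc18a1* goes from 0.018 to 1.19, and the intervals of *Chgb*, *Scg2*, *Scg3* and *Scg5* overlap across the time points.

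To ask whether the genotype difference itself changed in culture, day 3 was compared with crypts in one fit over all 18 libraries. The difference changed for 2 of 8 members, beside 30.6% of 12937 genes. The difference of *Slc18a1* moved up by 1.18 on the log2 scale (SE 0.29, 95% confidence interval 0.56 to 1.79, adjusted p = 0.00937, limma). That of *Pcsk1* moved down, with a log2 change of -1.84 (SE 0.40, 95% confidence interval -2.69 to -0.99, adjusted p = 0.00526, limma). *Chga* showed a change of -2.03 (SE 0.77, 95% confidence interval -3.66 to -0.40, adjusted p = 0.0558, limma), which did not pass, although with the mouse as a fixed replicate block the same value passed (adjusted p = 0.00484, limma), as it did without Mtgr1-/- mouse 1 (adjusted p = 0.0163, limma) or mouse 2 (adjusted p = 0.0408, limma). For *Cpe* the change was 0.39 (95% confidence interval -0.63 to 1.41) and for *Chgb* 0.43 (95% confidence interval -0.74 to 1.59), and neither passed. Without Mtgr1-/- mouse 1 the change of *Chgb* was 0.93 and passed, and 4 members passed.

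In WT mice the members were compared between crypts and enteroids. On 1 joint scale for the 3 tables, *Chgb* was at 4947 ± 1378, 5272 ± 1073 and 6364 ± 217 rescaled counts in crypts, at day 1 and at day 3 (n = 3), and *Cpe* was at 350.1 ± 90.4, 339.8 ± 30.6 and 279 ± 15.7. Neither gene's ranges separated crypts from day 1. Between crypts and day 1, 0 of 8 members passed the test, with 1 (*Pcsk1*) at an unadjusted p below 0.05, while 54.8% of all 12956 genes passed (limma). *Pcsk1* changed by -0.64 (SE 0.28, 95% confidence interval -1.24 to -0.04, adjusted p = 0.0648, limma) and *Chga* by -0.88 (SE 0.54, 95% confidence interval -2.03 to 0.27, adjusted p = 0.179, limma). As the same mice were sampled at each time point, the mouse was also fitted as a fixed replicate block, and then both *Chga* (adjusted p = 0.0183, limma) and *Pcsk1* (adjusted p = 0.0313, limma) fell. Between day 1 and day 3, 0 of 8 passed, with 0 at an unadjusted p below 0.05 and 7.73% of all genes called (limma).

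The corresponding levels in Mtgr1-/- mice are given without a test. *Cpe* was at 1869 ± 1256 rescaled counts in crypts, 5471 ± 1339 at day 1 and 1719 ± 196 at day 3, so that day 1 stood above the other times and crypts and day 3 overlapped. *Slc18a1* was at 254 ± 49.7, 544 ± 90.1 and 677 ± 232. *Chga* was at 159.5 ± 57.1, 18 ± 8.88 and 31.6 ± 21.0, and *Pcsk1* at 117 ± 30.5, 29.3 ± 3.94 and 22.9 ± 13.1. Both were higher in every Mtgr1-/- crypt library than in any Mtgr1-/- enteroid library, whereas *Chgb*, at 80.3 ± 10.1, 77.0 ± 29.2 and 168 ± 91.9, was not.

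Genes of the same pathway outside the 9 members were taken from lists, whose counts stand beside shares of all tested genes of 1.58% up and 3.15% down in crypts and 29.9% up and 29.1% down at day 3. Among 16 other processing enzymes, 14 were tested. In crypts 2 rose and 1 fell, but 0 rose without Mtgr1-/- library 1, without WT library 2 or in edgeR. At day 3, 6 rose and 3 fell, with a median log2 fold change of 0.32, and without Mtgr1-/- library 3, WT library 2 or WT library 3 only 1 fell. *Furin*, a convertase of the constitutive pathway, rose at day 3 from 1820 ± 86.1 to 3829 ± 168 normalized counts (log2 fold change 1.07, SE 0.08, adjusted p = 2.63e-05, limma). The lysosomal protease gene *Ctsl* rose by 1.48 (adjusted p = 0.000116, limma) and *Mme*, which encodes the peptidase neprilysin, by 1.64 (adjusted p = 0.00101, limma). *Cpn1*, a carboxypeptidase subunit, rose by 1.47 in crypts (adjusted p = 0.0262, limma; 0.0583 with the replicate block and 0.132 in edgeR) and fell by 1.11 at day 3 (adjusted p = 0.00282, limma), a difference between times that was not tested. The convertase gene *Pcsk6* fell by 0.57 at day 3 (adjusted p = 0.0318, limma; 0.0574 with the mouse number as a replicate block). Its genotypes stood further apart in crypts, at 226, 203 and 345 normalized counts in WT and 18.8, 0.951 and 8.13 in Mtgr1-/- libraries. At day 1 its log2 fold change was -2.37, and the difference between times was not tested. *Mbtps1*, which encodes the site-1 protease, fell by 0.23 at day 3 (adjusted p = 0.0217, limma).

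Of 14 genes of granule cargo and assembly, 12 were tested in each table. In crypts 5 fell and 0 rose, with 3 falls under the replicate block or without WT library 3, Mtgr1-/- library 1 or Mtgr1-/- library 3, and 2 in edgeR or without WT library 1 or 2. At day 3, 6 fell and 3 rose, with a median log2 fold change of -0.16, and 3 fell without WT library 1, while 1 rose without WT library 2 or 3. *Ptprn2* went from 364 ± 29.9 normalized counts in WT to 10.5 ± 6.18 in Mtgr1-/- day 3 enteroids (log2 fold change -5.14, SE 0.39, adjusted p = 3.50e-05, limma), *Ptprn* fell by 4.17 (adjusted p = 0.000116, limma) and *Resp18* fell by 3.64 (adjusted p = 0.000864, limma). *Ptprn*, at 0.994 to 3.41 normalized counts in Mtgr1-/- day 3 enteroids, and *Resp18*, at 0 to 1.1, passed the minimum mean only through their WT level, and the counts of the list hold such genes. The 3 that rose did so by less: *Bace2*, a membrane protease, by 0.67, *Ccdc186* by 0.57 and *Vti1a* by 0.24 (adjusted p = 0.0128, 0.0143 and 0.0361, limma). In crypts *Bace2* fell by 2.98 (adjusted p = 0.00129, limma), and the difference between the times was not tested.

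Of 22 genes of regulated exocytosis, 19 were tested in crypts and at day 3. In crypts 7 fell and 1 rose, with 2 falls without WT library 1, 3 without WT library 2 or in edgeR and 11 in DESeq2. At day 3, 11 fell and 2 rose (1 without WT library 1 or 2 or Mtgr1-/- library 3), with a median log2 fold change of -1.10. *Rab3c*, a vesicle GTPase, fell by 5.47 at day 3 (SE 0.70, adjusted p = 0.000411, limma), *Rimbp2*, a protein of release sites, fell by 4.81 (adjusted p = 4.66e-05, limma) and *Cadps*, a priming factor of dense-core vesicles, fell by 4.57 (adjusted p = 0.000200, limma). These 3 genes, at 0 to 7.86 normalized counts in Mtgr1-/- day 3 enteroids, also passed the minimum mean only through their WT level. The paralogue of *Cadps*, *Cadps2*, rose by 0.35 (adjusted p = 0.0157, limma).

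*Tph1*, the rate-limiting enzyme of serotonin synthesis outside the brain, was at 288, 304 and 585 normalized counts in WT crypts and at 30.1, 15.2 and 30.5 in Mtgr1-/- crypts, and it fell by 3.89 (SE 0.38, adjusted p = 0.00308, limma). At day 3 it was at 394, 332 and 384 in WT and at 12.5, 16.9 and 23.6 in Mtgr1-/- enteroids, and it fell by 4.35 (SE 0.24, adjusted p = 1.05e-05, limma). *Ddc*, the decarboxylase that acts after *Tph1*, overlapped between the genotypes in crypts (log2 fold change -0.29, adjusted p = 0.607, limma) and rose at day 3, from 3263, 3156 and 3602 to 9591, 10027 and 7935 normalized counts (log2 fold change 1.45, SE 0.11, adjusted p = 3.05e-05, limma). *Gch1*, which makes the cofactor of *Tph1*, rose at day 3 by 1.73 (adjusted p = 7.02e-06, limma) and *Maob*, a monoamine oxidase, by 1.23 (adjusted p = 0.000992, limma), while *Pts*, another enzyme of that cofactor, fell by 0.34 (adjusted p = 0.0301, limma; 0.0519 with the replicate block). Of the 11 monoamine genes tested out of 15, 0 rose and 1 fell in crypts, and at day 3, 5 rose and 2 fell (1 in edgeR or without WT library 1 or 2 or Mtgr1-/- library 2), beside 29.9% and 29.1% of all tested genes, with a median log2 fold change of 0.24. The second vesicular transporter of the list, *Slc18a2* (VMAT2), was too low to be tested.

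**Figure D5:**
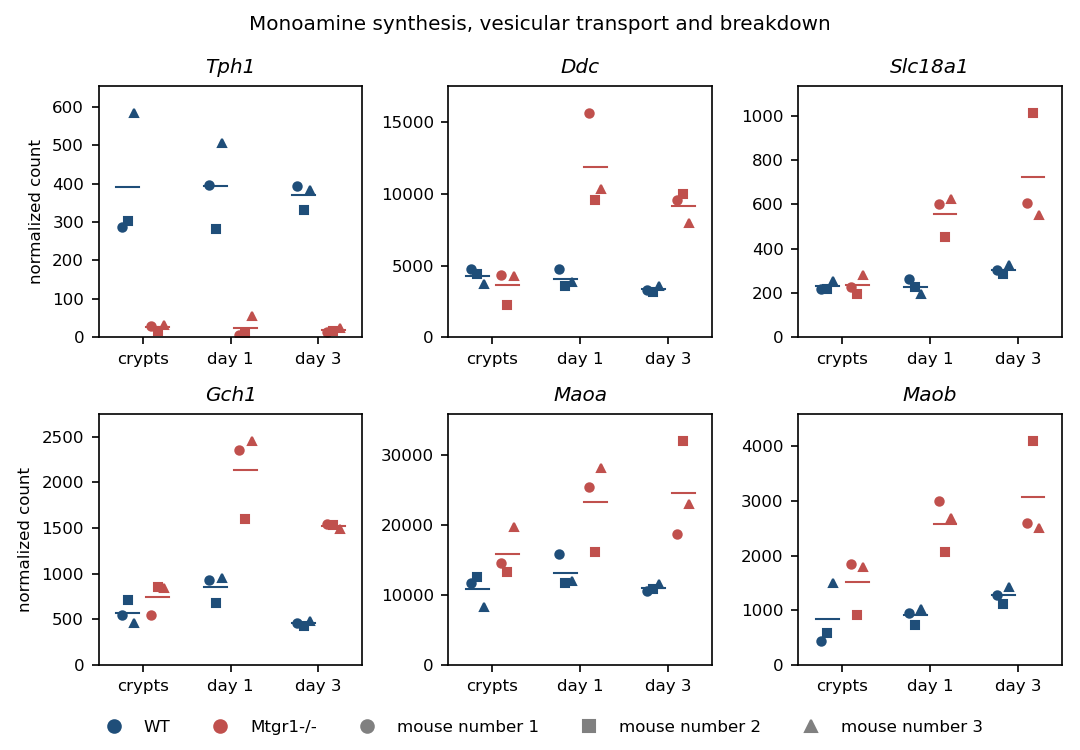
Panels plot the normalized counts of *Tph1*, *Ddc*, *Slc18a1*, *Gch1*, *Maoa* and *Maob* against the time point in 3 WT and 3 Mtgr1-/- libraries (linear axes from 0, symbols for mouse numbers, bars at group means). *Tph1* is low in Mtgr1-/- libraries at all times, at 5.83 to 56.2, and the Mtgr1-/- points of the other 5 genes lie above all WT points at day 1 and day 3.

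The marker lists place these values. Of 8 hormone genes tested in crypts 8 fell, and at day 3, 8 of 8 fell. Of the enteroendocrine transcription factors, 10 of 16 fell in crypts, but 2 of 15 without WT library 1, 3 without WT library 2 and 4 in edgeR, and 16 of 17 fell and 1 rose at day 3. Of all tested genes 3.15% fell in crypts and 29.1% at day 3, and these lists too hold genes that passed the minimum mean through WT alone. The 8 neural markers listed, of cells that also express granins, summed to 89.1 to 151 in WT and 80.1 to 183 in Mtgr1-/- libraries, mostly from *Ret* (50.5 to 105 in WT, 64.0 to 147 in Mtgr1-/- libraries). *Elavl4* and *Gfap* were at 0 in every Mtgr1-/- library and at most at 2.08 in WT. At day 3 *Prph* and *S100b*, both low, were at 2.25 to 11.9 in Mtgr1-/- libraries and at 0 to 1.79 in WT. *Tubb3* went the other way, at 0.994 to 2.25 in Mtgr1-/- day 3 libraries and at 26.7 to 30.0 in WT. Of the 3 neural markers tested at day 3, 1 fell and 0 rose. The part of the neural markers in the granin values was not tested. Leukocyte markers summed to 132 to 476 in Mtgr1-/- day 3 libraries and to 92.6 to 109 in WT, highest in mouse 3, in which *Cpe* was lowest. In Mtgr1-/- crypts they summed to 2251, 769 and 1869 in mice 1, 2 and 3, which was the mouse order of *Cpe* there. The part of leukocytes in the *Cpe* values was not tested.

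Over the 18 libraries, the genes whose profile was most like that of *Cpe* were *Depdc7* (Pearson r = 0.951 on the log2 joint scale), *Slc6a19os* (0.949), *Fn1* (0.948), *Lpcat3* (0.947) and *Tmem184c* (0.945). Those most like *Slc18a1* were *Klhdc3* (0.969), *Pank3* (0.962), *Pxmp4* (0.942), *Fmo5* (0.940) and *Nckap5* (0.939). Those most like *Chga* were *Peli2* (0.987), *Gfi1* (0.981), *Smim6* (0.970), *Grk3* (0.968) and *Cacna1a* (0.967). *Chga* and *Cpe* had r = -0.909 with each other, and *Slc18a1* had r = 0.692 with *Cpe*. These are descriptions over 18 libraries of 6 mice, which share genotype and time point, among 12956 genes.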

How the data were processed

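The authors trimmed single reads of 50 bp from stranded mRNA libraries with fastp 0.20.0, quantified GENCODE release 21 mouse transcripts (GRCm38) with Salmon 1.3.0, and compared genotypes with DESeq2 1.26.0. The deposited signal is the gene count divided by 1 factor per library, within each time point's table. The deposited log2 columns (fold changes and their errors), the deposited score (Wald statistic) and the deposited p-value columns are the authors' comparisons and were not used, nor was their deposited mean signal.

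Groups and mouse numbers came from the labels. The 9 members, the pathway and marker lists and the tests were chosen with earlier results of these data known. Log2(normalized count + 1) of genes with a mean of at least 10 was fitted with limma 3.58.1 (trend) in R 4.3.3, two-sided, with Benjamini-Hochberg adjustment over all tested genes and a threshold of 0.05. This scale understates changes of low genes. Changes between time points came from 1 fit to the 18 libraries in which the mouse entered as a random term, with a correlation within mice of 0.00576 on the deposited scale and of 0.00918 after joint median-ratio rescaling, which was used for levels across tables. Named pathway genes are up to 3 largest rises and 3 largest falls of each list at day 3, plus *Cbfa2t2*, and others named were chosen after their values were seen. One result of the exocytosis list is not reported here. The 5 genes of highest correlation were named for *Cpe*, *Slc18a1* and *Chga*. Exon lengths came from the same GENCODE release. Same-numbered WT and Mtgr1-/- mice deviated together at day 1 (r over genes 0.116, 0.231 and 0.216) but not at every number in crypts (0.0764 to 0.346) or at day 3 (-0.0156 to -0.00226), and fits with the number as a block were alternatives. With 3 libraries per group, p-values of single genes are those of the moderated model.

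Whole reads were recovered from the step between low values, within a tolerance of 1e-06, for 16 libraries. The other 2 (WT crypts 2 and Mtgr1-/- day 3 enteroids 2) had a step too near 1 to show it. The alternatives with edgeR 4.0.16 and DESeq2 1.42.0 did without these, although their near-whole values enter the read ratios. Read intervals are exact binomial ones at 95% and cover counting error only. Steps were tested on simulated data. Other alternatives were each library left out (across time points, 1 mouse with all its libraries), pseudocounts of 0.1 and 8, no filter, no trend, median-ratio rescaling, no mouse effect, and, across time points, no rescaling and library totals.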

Additional observations from a re-analysis of the deposited data

Results flagged for a closer look

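The genotype difference of *Slc18a1* was not the same in crypts and in day 3 enteroids: it changed by 1.18 on the log2 scale by a test of the difference itself (adjusted p = 0.00937, limma over 18 libraries), from 0.018 to 1.19, and it kept its direction and passed under 11 of 11 alternatives (0.78 to 1.48). The genotype difference of *Pcsk1* also changed between crypts and day 3, by -1.84 (adjusted p = 0.00526, limma), and passed under 11 of 11 alternatives (-2.06 to -1.54).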

How the results depend on the processing

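At day 3 the members' calls kept their direction and passed under 14 of 14 alternatives (8 calls, or 9 with no filter, which adds *Pcsk1n*). All-gene calls at day 3 were 7545 of 12782, and 6096 to 7959 under the alternatives. *Scg2*, *Scg3* and *Scg5* passed the minimum mean only through their WT level, so these counts are not evidence about the set. The day 1 difference, known when the genes were chosen, is not used as support. In crypts 7 calls became 3 to 7 when 1 library was left out (3 without WT 1, 4 without WT 2), 5 in edgeR and 8 with no filter. All-gene calls there went from 614 to 176 (without WT 1), 211 (WT 2), 310 (Mtgr1-/- 1), 379 (Mtgr1-/- 3), 206 (edgeR) and 1193 (DESeq2). *Cpe* in crypts lost its call in 10 of 14 alternatives (adjusted p 0.0513 to 0.167), *Scg5* in 4 of 9 (up to 0.126, and without any WT library it fell below the filter), *Scg3* in 2 (without WT 1 and WT 2, up to 0.0809) and *Scg2* in 1 (without WT 1, 0.0521). The change of the genotype difference held for 2 to 4 members when 1 mouse was left out with all its libraries (4 without Mtgr1-/- mouse 1). All-gene calls went from 3965 to 1835, 1745 and 2124 without WT mice 1, 2 and 3. WT crypts against day 1 gave 2 calls with the mouse as a fixed replicate block and 1 with a pseudocount of 8 (*Pcsk1*). WT day 1 against day 3 gave 0 throughout, with all-gene calls from 1002 to 89, 364 and 276 without WT mice 1, 2 and 3. Without rescaling the tables, the split of WT calls from crypts to day 1 was 4566 up and 2693 down, by library totals 4991 and 2300, against 3357 and 3737, and the median of all genes moved from -0.04 to 0.13 and 0.22. Without rescaling, calls from day 1 to day 3 split 650 up and 422 down, against 365 and 637.

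The replicate block also lost *Scg5* in crypts (adjusted p = 0.0793), *Pcsk6* (0.0574) and *Pts* (0.0519) at day 3 and called *Cbfa2t2* higher in Mtgr1-/- libraries at day 1 (0.0399), gained *Chga* in the change of the genotype difference (0.00484), took *Cpn1* in crypts out (0.0583), and changed no other call of a member, nor of a named pathway gene at day 1 or day 3. In crypts it moved the falls of the granule list from 5 to 3.

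Signs turned only for differences that passed in no setting named here, and the cause was not tested. *Slc18a1* in crypts was -0.0052 after median-ratio rescaling, -0.0248 in edgeR, -0.0219 in DESeq2 and -0.12 to 0.15 with 1 library left out. *Cbfa2t2* at day 3 was -0.0248 in edgeR, -0.0189 in DESeq2 and -0.024 to 0.15 with 1 library left out, and *Pts* at day 1 was -0.13 to 0.10. For the change of the genotype difference, *Scg2* was -0.015 with a pseudocount of 8 and *Scg5* 0.88 with 0.1, and with 1 mouse left out *Scg3* ranged from -0.23 to 0.79, *Scg5* from -0.64 to 1.19 and *Cpe* from -0.079 to 0.81. For WT crypts to day 1, no rescaling gave *Scg3* 0.071 and *Cpe* 0.15, library totals gave *Scg3* 0.16, *Cpe* 0.24 and *Slc18a1* 0.076, and with 1 mouse left out *Scg2* ranged from -0.074 to 0.21, *Scg3* from -0.24 to 0.16, *Cpe* from -0.17 to 0.20 and *Slc18a1* from -0.32 to 0.012. For WT day 1 to day 3, *Scg5* was 0.031 with no rescaling and 0.023 by library totals, and with 1 mouse left out *Scg3* ranged from -0.31 to 0.076 and *Scg5* from -0.15 to 0.12. Where 1 library was left out of a group, the spread was pooled over the rest. *Scg3*, *Scg5* and *Pcsk1n* rest on 4 reads or fewer per group in Mtgr1-/- libraries, which limits their fold changes.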
